A study of Homo sapiens with 4 samples.

Results

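The nuclear pore complex is the channel through which proteins and RNA pass between nucleus and cytoplasm, and the genes described here encode its subunits (nucleoporins) and the receptors that carry cargo through it (karyopherins). They were chosen by name: every gene of the array whose symbol began with NUP, NUPL, KPNA, KPNB or IPO followed by a digit, the exportins XPO1 to XPO7 other than XPO5, and AAAS, SEH1L, SEC13, RAE1, TPR, NDC1 and POM121. The rule took 48 of the 27193 genes named on the array, with 65 probes on 74 of 43118 spots. Of these, 29 encode nucleoporins or close relatives and 19 encode karyopherins. The symbol NDC1 was not on the array, which carries its older name TMEM48.

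RNA was measured in MCF10A.B2 cells, a line made from the non-tumorigenic human mammary epithelial line MCF10A and carrying a form of HER2 (ErbB2) that a chemical can activate. The 2 control samples are labelled as PAK1 wild type, and the 2 PAK1 shRNA samples as deficient in PAK1, a serine/threonine kinase, through a stably expressed, tetracycline inducible shRNA. Both groups had been deprived of serum for 3 h and then given AP1510, the crosslinker that activates the receptor, for 15 min. The study's methods likewise set wild type cells of the line apart from those expressing the shRNA. How long the shRNA was induced, and whether its cells were 1 clone or a pool, is not given in the sources used here. The duplicates are described as coming from separate tumors, whereas the methods name the cell line, so that the p-values measure only the spread between these samples, which may be technical.

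Nucleoporins build the pore in layers. The Y complex forms the outer rings on both faces, the inner ring lines the membrane channel, membrane nucleoporins anchor it, FG nucleoporins fill the central channel, and filaments and a basket extend into cytoplasm and nucleus. In classical import, an importin alpha binds the nuclear localisation signal of a cargo and is carried through the channel by importin beta, and the GTPase Ran in its GTP form releases the cargo inside. Exportins bind cargo together with Ran-GTP and let go of it in the cytoplasm. Metazoan pores come apart and are rebuilt at every mitosis, and new pores are added during interphase before the next division.

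Values are log2 intensities of Agilent 1-colour arrays after background correction and quantile normalization, and differences are log2 fold changes of PAK1 shRNA over control from limma, with their standard error (SE, 2 arrays a group) and a Benjamini-Hochberg adjusted p over all 21996 genes tested. A gene was called at an adjusted p under 0.05. Levels of different probes cannot be compared. The arrays of a group correlated at r = 0.9979 and 0.9983 over 27505 probes, and arrays of different groups at 0.932 to 0.942. Between 78.87% and 83.15% of spots per array were well above background. The shRNA target itself, measured by 1 probe, gave 11.19 and 11.27 in control and 10.45 and 10.51 in PAK1 shRNA cells. PAK1 was thus lower on both PAK1 shRNA arrays, with a log2 fold change of -0.75 (SE 0.076, limma adjusted p = 0.000173), which left 59.5% of the control intensity.

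The contrast was wide, and the counts below are read against it. Of all genes tested, 62.9% were called, 31.1% as higher and 31.8% as lower in PAK1 shRNA cells. At least 2-fold changes among the called genes were seen upward in 8.87% and downward in 8.94%. The groups did not overlap for 81.8% of all genes, and the median change of all genes was 0.02. All 14 listed proliferation genes were called lower, with a median log2 fold change of -3.65 and an intensity summed over the list (here and below divided by 1000) of 283 to 287 in control and 18.9 to 20.9 in PAK1 shRNA cells. All 10 listed interferon response genes were called higher, with a median of 6.60 and a summed intensity of 10.8 to 11.4 against 1260 to 1420. The part of either in the changes of the pore genes was not tested. In whole-cell RNA, fewer cells of a kind and less RNA per cell cannot be told apart.

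The 8 listed markers of basal mammary epithelium were well above background on all 4 arrays, and their summed intensity was 332 to 370 in control and 328 on both arrays of PAK1 shRNA cells. Of 10 markers of blood, endothelial, muscle and stromal cells, 9 were well above background on all 4 arrays for at least 1 probe, PDGFRB on 3, so the detection call did not set this list apart. Their summed intensity was 21.2 to 22 in control and 48.8 to 52.5 in PAK1 shRNA cells, where 4 were called higher and 2 lower. The part of this in the results was not tested.

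PAK1 shRNA cells had mostly lower transcript levels of the pore and its receptors. Of the 48 genes 47 were tested, and 41 of them (87.2%) were called, 35 lower and 6 higher. The 6 include KPNA7, which was well above background on only 1 control array and on both PAK1 shRNA arrays. With only probes well above background on all arrays, 46 genes were tested, and 35 were called lower and 5 higher. By at least 2-fold, 10 of the 47 genes were lower and 1 was higher. The lower count was 8 with the mean over probes or with all spots in the background fit. It was 12 with the processed signal or median centring. The median change of the 47 genes was -0.60 on the log2 scale, beside 0.02 for all genes. Single genes ranged from -2.00 for KPNA2 to 1.38 for AAAS. The groups did not overlap for 44 of the 47 genes, of which 37 were lower and 7 higher, beside 81.8% of all genes without overlap. Among the nucleoporin genes tested, 22 of 28 were called lower and 3 higher, with a median of -0.70. Among the karyopherins 13 of 19 were lower and 3, KPNA7 among them, higher, with a median of -0.57. The gene left out was NUP210L, a relative of NUP210, whose only probe passed the background limit on 1 control array and on neither PAK1 shRNA array.

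**Figure D1:**
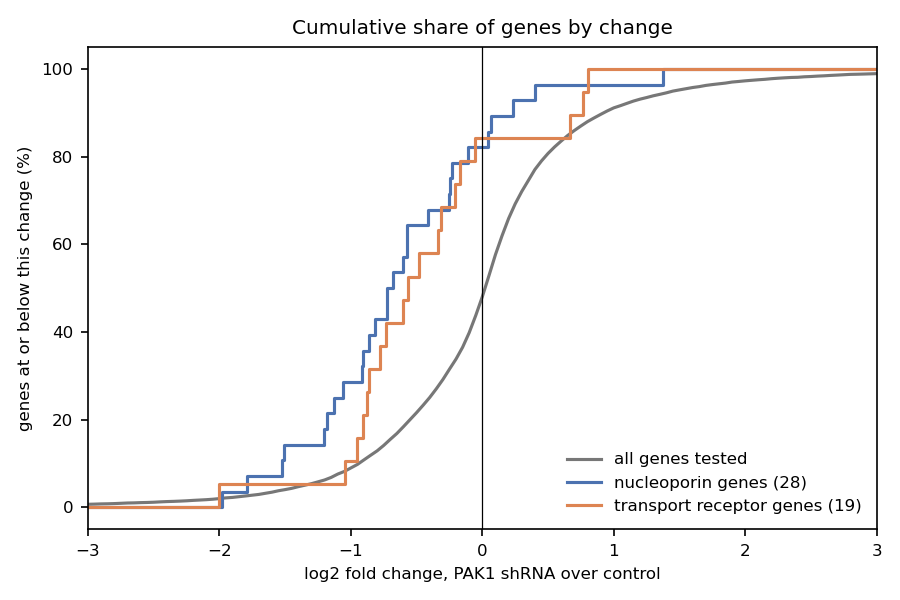
The cumulative share of genes (y axis, percent) at or below each log2 fold change of PAK1 shRNA over control (x axis) is drawn for 28 nucleoporin genes, 19 transport receptor genes and all 21996 genes tested. Both lines for the pore and its receptors run to the left of the line for all genes over most of their range, with medians of -0.70 and -0.57 against 0.02, and neither group reaches the extremes of all genes.

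Among the genes that the name rule took, the median change differed with the place in the pore. The Y complex had a median of -1.20 and the inner ring one of -0.86. The cytoplasmic face had 0.04 and the importin alpha family -0.17, with members in both directions. The importin alpha family includes KPNA7, which was well above background on only 1 control array. These medians rest on 5 to 8 genes each and are a description, since no test between roles was made. They also depend on the name rule, which did not take RANBP2 and GLE1 of the cytoplasmic face or AHCTF1 of the Y complex. These genes were called lower, at -0.51, -1.10 and -0.45.

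**Figure D2:**
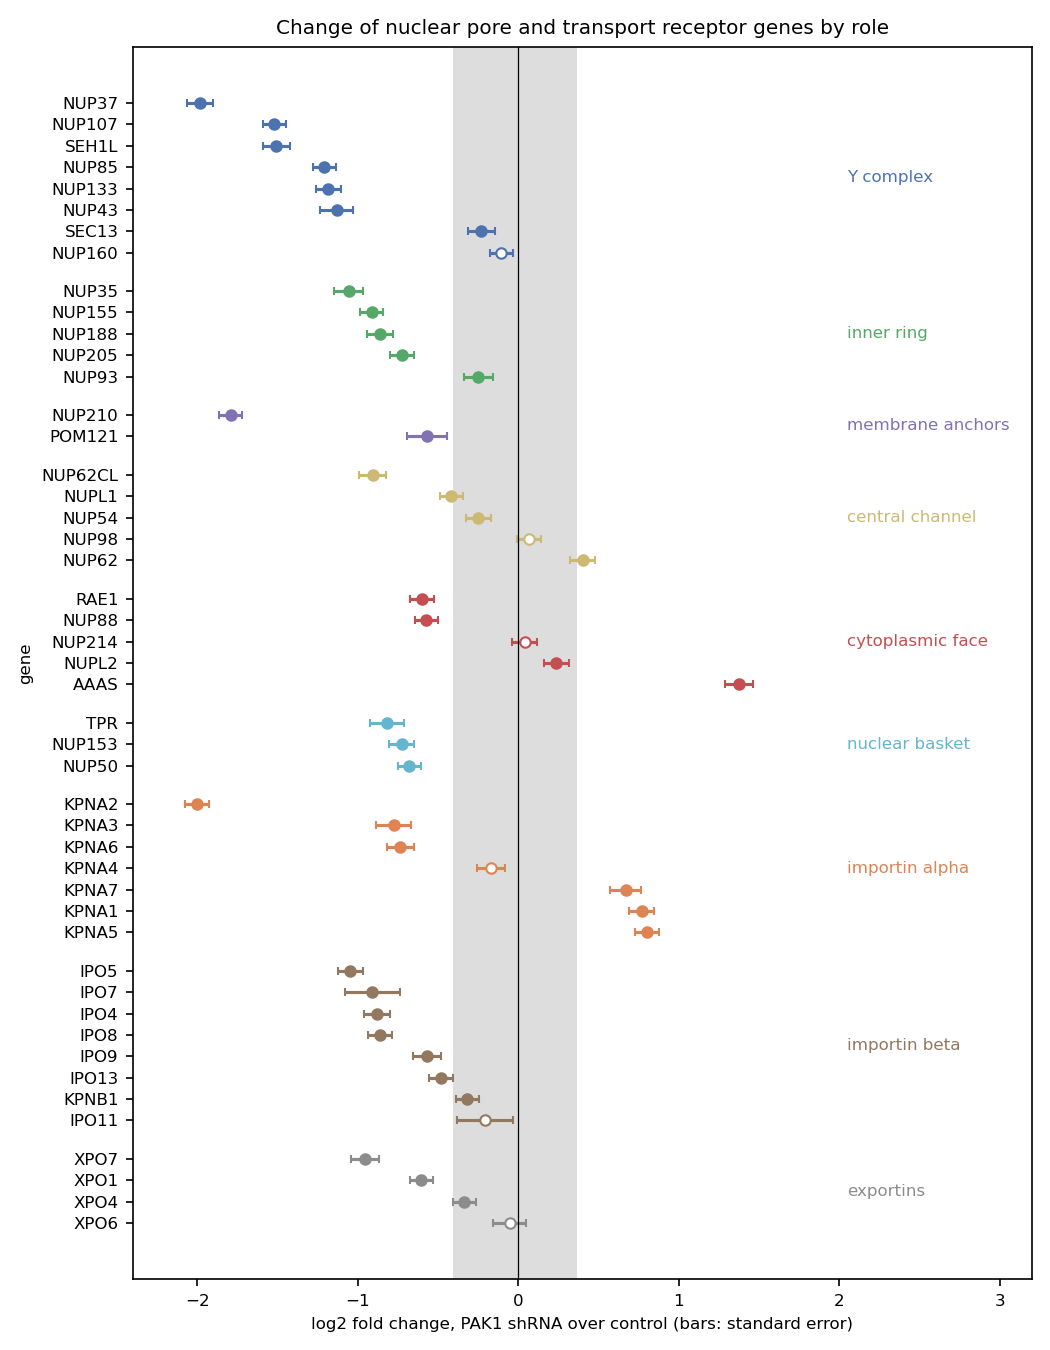
Log2 fold change of each of the 47 tested genes (x axis, PAK1 shRNA over control, bars show the standard error, 2 arrays a group), grouped by role. Filled points passed the adjusted p threshold of 0.05 and open points did not, and the grey band is the middle of all genes tested, from -0.40 to 0.36. Y complex genes other than SEC13 and NUP160 lie left of the band, and importin alpha genes lie on both sides.

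The promoters of 3 genes called at least 2-fold lower are shown first, picked because they hold letters known from genes of the cell cycle. The cell cycle homology region (CHR), searched as the letters TTTGAA or TTCGAA, is an element that together with CCAAT boxes controls many genes of late cell cycle phases. The other matched promoters of genes called at least 2-fold lower, those of NUP210, NUP107, SEH1L, NUP85, NUP133 and IPO5, held no CHR letters and are not printed. The lines give the 250 bases before the RefSeq start (GRCh38.p14), 5′ to 3′ on the strand of the gene, for KPNA2 (chr17:68035485-68035734, plus strand), NUP37 (chr12:102120115-102120364, minus strand), NUP35 (chr2:183124193-183124442, plus strand) and, for contrast, NUP98 (chr11:3797547-3797796, minus strand). Capitals mark CHR letters, CCAAT boxes and, in NUP98, GAAANNGAA, the core of the interferon response element. All were searched on both strands, so that a CHR on the other strand reads TTCAAA and a CCAAT box there reads ATTGG.
KPNA2: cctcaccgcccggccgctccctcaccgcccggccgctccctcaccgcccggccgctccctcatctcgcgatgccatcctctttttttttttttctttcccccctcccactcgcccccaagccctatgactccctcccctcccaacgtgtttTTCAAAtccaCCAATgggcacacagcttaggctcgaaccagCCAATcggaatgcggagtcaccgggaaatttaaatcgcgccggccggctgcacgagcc
NUP37: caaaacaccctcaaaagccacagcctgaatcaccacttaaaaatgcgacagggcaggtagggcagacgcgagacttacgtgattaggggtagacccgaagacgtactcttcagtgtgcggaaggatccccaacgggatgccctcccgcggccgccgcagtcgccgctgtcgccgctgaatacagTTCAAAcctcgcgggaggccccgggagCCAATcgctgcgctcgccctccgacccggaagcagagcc
NUP35: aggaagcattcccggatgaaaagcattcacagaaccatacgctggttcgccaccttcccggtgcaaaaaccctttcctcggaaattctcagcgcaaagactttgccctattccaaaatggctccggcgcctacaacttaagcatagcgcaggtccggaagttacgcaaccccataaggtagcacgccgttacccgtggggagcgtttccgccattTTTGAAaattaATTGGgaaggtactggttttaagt
NUP98: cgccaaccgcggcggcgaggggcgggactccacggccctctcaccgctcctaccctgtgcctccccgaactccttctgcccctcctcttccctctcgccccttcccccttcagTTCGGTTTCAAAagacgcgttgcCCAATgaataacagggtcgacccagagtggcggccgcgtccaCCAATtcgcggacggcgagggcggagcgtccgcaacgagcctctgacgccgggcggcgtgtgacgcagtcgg

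In KPNA2 the CHR letters began 99 bases before the start, on the strand opposite to the gene, with CCAAT boxes at 89 and 58 bases. In NUP37 they lay at 66 bases with CCAAT at 39, and in NUP35 at 35 bases with CCAAT at 24. In NUP98, whose main probe was not called, the CHR at 131 bases shared letters with GAAANNGAA at 137, and CCAAT was found at 114 and 72. A second NUP98 probe rose by 0.57. CHR letters also stood before IPO7 (-0.91), NUP153 (-0.73) and NUP205 (-0.72), which were called lower, and before IPO11 (-0.21), which was not called. Any part of these letters in the changes was not tested.

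A promoter was matched for 42 of the 48 genes, 2 of them through older symbols, and none was matched for NUP43, XPO7, KPNA4, KPNA5, KPNA7 and KPNB1. CHR letters were found in 3 of the 9 matched promoters of genes called at least 2-fold lower (33.3%), in 8 of 42 (19%) of all matched promoters, in 12.1% of 22199 promoters of protein-coding genes and in 14.3% of all 35116 promoters of the table. CCAAT was found in 5 of 9, in 19 of 42 (45.2%), in 32.7% of the protein-coding and in 32% of all. The E2F letters TTTCGCGC, TTTGGCGC or TTTCCCGC were found in 1 of 42 (2.38%) beside 2.94% of the protein-coding and 2.32% of all, and GAAANNGAA in 1 of 42 beside 6.07% and 6.88%. None of the 4 matched promoters of genes called higher held the CHR, E2F or interferon letters. These are matches of letters, and no binding was measured.

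In the Y complex, whose subunits seed new pores and sit at kinetochores in mitosis, 7 of the 8 genes taken by the rule were called lower and 6 by at least 2-fold. Averaged over their probes, NUP133 (-0.96) and NUP43 (-0.84) fell short of 2-fold. NUP37, a small propeller subunit, gave 12.20 and 12.34 in control and 10.31 and 10.27 in PAK1 shRNA cells. All PAK1 shRNA values lay well below all control values, and the log2 fold change was -1.98 (SE 0.082, limma adjusted p = 3.74e-06), which left 25.3% of the control intensity. Its probe was placed at chr12:102470624-102471157 (hg19, minus strand). NUP107, a stem subunit, gave 13.50 and 13.49 against 11.96 and 11.99, a change of -1.52 (SE 0.072, adjusted p = 6.24e-06).

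SEH1L, which also serves in nutrient sensing at the lysosome, gave 11.89 and 12.01 in control and 10.50 and 10.39 in PAK1 shRNA cells, a change of -1.51. NUP85 gave 13.26 and 13.20 against 12.01 and 12.03, a change of -1.21. The arrays of each group differed by far less than the groups did for both genes. NUP133, a stem subunit whose end senses curved membrane, gave 13.24 and 13.35 against 12.13 and 12.09, a change of -1.18. NUP43 gave 13.38 and 13.13 against 12.10 and 12.15, a change of -1.13, and the control arrays, though further apart than for the other genes, were both above both PAK1 shRNA arrays. These 4 genes had limma adjusted p-values of 1.21e-05 for SEH1L, 1.69e-05 for NUP85, 2.38e-05 for NUP133 and 9.58e-05 for NUP43.

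The remaining Y complex genes taken by the rule changed little. SEC13, also a coat protein of vesicles that leave the endoplasmic reticulum, had 3 probes, and its brightest gave 14.62 and 14.75 in control and 14.48 and 14.42 in PAK1 shRNA cells, a change of -0.23 (SE 0.082, limma adjusted p = 0.0454). The call was lost in 9 of 16 other settings, among them the fits without control replicate 2 (-0.16), without PAK1 shRNA replicate 1 (-0.26) and without PAK1 shRNA replicate 2 (-0.21). Another SEC13 probe gave -0.34, and the third, designed on a different transcript and placed at chr3:10356659-10356718 (hg19, minus strand), gave 0.49 (SE 0.087, adjusted p over all probes = 0.00194), with 9.38 and 9.24 in control and 9.75 and 9.86 in PAK1 shRNA cells. The probes thus disagreed in sign, and the mean over them was -0.03. NUP160, a large subunit of the complex, gave -0.11 (adjusted p = 0.24) and did not pass the threshold, although its groups did not overlap.

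All 5 inner ring genes were called lower, 1 of them by at least 2-fold. NUP35, a membrane-binding linker, was represented by 10 spots and gave 11.52 and 11.72 in control and 10.59 and 10.54 in PAK1 shRNA cells, a change of -1.06 (SE 0.09, limma adjusted p = 7.84e-05). Both PAK1 shRNA arrays lay below both controls, and a second NUP35 probe gave -0.97. The scaffold genes NUP155, NUP188 and NUP205 changed by -0.91, -0.86 and -0.72. NUP93, which ties the ring to the channel, was called at -0.25 (adjusted p = 0.0481), and the call was lost in 7 of 16 other settings, including the fits without control replicate 2 (-0.17), without PAK1 shRNA replicate 1 (-0.18) and without PAK1 shRNA replicate 2 (-0.31).

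Both membrane anchors that could be tested were called lower. NUP210 (gp210), a membrane glycoprotein that differs widely between tissues, gave 10.88 and 10.85 in control and 9.10 and 9.05 in PAK1 shRNA cells. That is a change of -1.79 (SE 0.073, limma adjusted p = 3.56e-06), the third largest fall among the 47 genes, with 28.9% of the control intensity left. POM121, needed for pore assembly in interphase, changed by -0.57 (adjusted p = 0.0063), and its probe could also take up signal from the nearly identical POM121C, which has no symbol on the array. TMEM48, the older symbol of NDC1, was outside the rule and is given with the pathway genes.

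Each basket gene was called lower at its brighter or only probe, but second probes of NUP50 and TPR differed. TPR, the filament protein that builds the basket, changed by -0.82, NUP153, its anchor, by -0.73 and NUP50, which helps to take apart the import complex, by -0.68. For NUP50 the brighter probe, at chr22:45583785-45583843 (hg19, plus strand), gave 11.25 and 11.24 in control and 10.55 and 10.57 in PAK1 shRNA cells (adjusted p = 0.000196). The second NUP50 probe, at chr22:45580381-45580440, gave 10.04 and 10.12 in control and 10.36 and 10.49 in PAK1 shRNA cells, a change of 0.34 (SE 0.083, adjusted p over all probes = 0.00869). Both probes carry the same RefSeq transcript in the array files, and each separated the groups, in opposite directions. Averaged over both probes NUP50 changed by -0.17 (adjusted p = 0.0847) and was no longer called. The second TPR probe gave -0.13, against -0.82 for the first, and their mean -0.47.

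In the central channel the genes did not move as one. NUP62, the core FG nucleoporin of the channel, was called higher, with 14.73 and 14.73 in control and 15.08 and 15.19 in PAK1 shRNA cells, a change of 0.40 (SE 0.077, limma adjusted p = 0.00357). Its partners in the channel trimer, NUP54 and NUPL1 (NUP58), were called lower, at -0.25 and -0.42, and its relative NUP62CL at -0.91. The NUP54 call was lost in 5 of 16 other settings, including the fits without control replicate 2 (-0.19), without PAK1 shRNA replicate 1 (-0.25) and without PAK1 shRNA replicate 2 (-0.25). NUP62 and its partners therefore changed in opposite directions, though the difference between these genes was not tested.

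NUP98, an FG nucleoporin made from a precursor that also yields NUP96, gave 12.90 and 12.90 against 12.91 and 13.02 at its brighter probe (chr11:3696747-3696806, hg19, minus strand), a change of 0.07 (adjusted p = 0.483). A second NUP98 probe, designed on another RefSeq transcript and placed at chr11:3733190-3733249, gave 0.57 (SE 0.094, adjusted p over all probes = 0.00141), and the mean of both gave 0.32 (adjusted p = 0.0122). The call on NUP98 thus depended on the probe, and no single direction is drawn for its transcripts beyond these values.

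On the cytoplasmic face, AAAS had the largest rise of the 47 genes. It encodes ALADIN, a pore protein that NDC1 holds in place and that is mutated in triple A syndrome. AAAS gave 12.01 and 11.91 in control and 13.27 and 13.41 in PAK1 shRNA cells. Both PAK1 shRNA arrays lay over 1 unit above both controls, and the log2 fold change was 1.38 (SE 0.086, limma adjusted p = 1.99e-05), or 2.60 times the control intensity. Among all genes 5.69% rose further.

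NUPL2 (NUP42), which works with GLE1 in mRNA release, gave 12.23 and 12.28 against 12.53 and 12.44, a change of 0.24 (adjusted p = 0.0318). That call was lost in 6 of 16 other settings, including the fit without any one array (0.19 to 0.28). RAE1, an mRNA export factor and mitotic regulator, was called lower at -0.60, and NUP88 at -0.57. NUP214, the partner of NUP88, gave 0.04 (adjusted p = 0.673) with overlapping groups.

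The importin alpha genes, the adaptors that choose the cargo, split in direction. KPNA2 had the largest fall of all 47 genes. It gave 16.99 and 17.10 in control and 15.04 and 15.04 in PAK1 shRNA cells, at chr17:66042658-66042717 (hg19, plus strand). The groups were far apart and the spots were not saturated, with a change of -2.00 (SE 0.077, limma adjusted p = 2.82e-06), which left 24.98% of the control intensity. Only 1.95% of all genes fell further. KPNA2 is the importin alpha tied to proliferating cells, and its promoter is among those printed above.

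KPNA3 gave 11.40 and 11.70 in control and 10.79 and 10.75 in PAK1 shRNA cells, a change of -0.78 (SE 0.11, adjusted p = 0.000828). KPNA6 gave 13.86 and 13.94 against 13.25 and 13.09, a change of -0.73 (SE 0.086, adjusted p = 0.000342). Its second probe gave -0.34. KPNA4, with KPNA3 a carrier of NF-kappaB, gave 12.79 and 12.97 against 12.67 and 12.75, a change of -0.17 (adjusted p = 0.141). It was below the controls on both PAK1 shRNA arrays but did not pass the threshold.

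KPNA1, a widely expressed importin alpha, gave 8.99 and 8.87 in control and 9.73 and 9.67 in PAK1 shRNA cells, a change of 0.77 (SE 0.08, limma adjusted p = 0.00019). KPNA5, its close relative, gave 8.89 and 8.93 against 9.68 and 9.74, a change of 0.80 (SE 0.074, adjusted p = 0.000106), and a second probe gave 0.59. Both genes were higher on both PAK1 shRNA arrays. KPNA7, an adaptor known from oocytes and early embryos, gave 6.47 and 6.30 against 6.98 and 7.13, a change of 0.67 (adjusted p = 0.000828). It rose above the background limit on 1 of 2 control arrays and on both PAK1 shRNA arrays, and its change depended on the background correction, from 0.34 with all spots in the background fit to 2.22 with the scanner's processed signal.

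**Figure D3:**
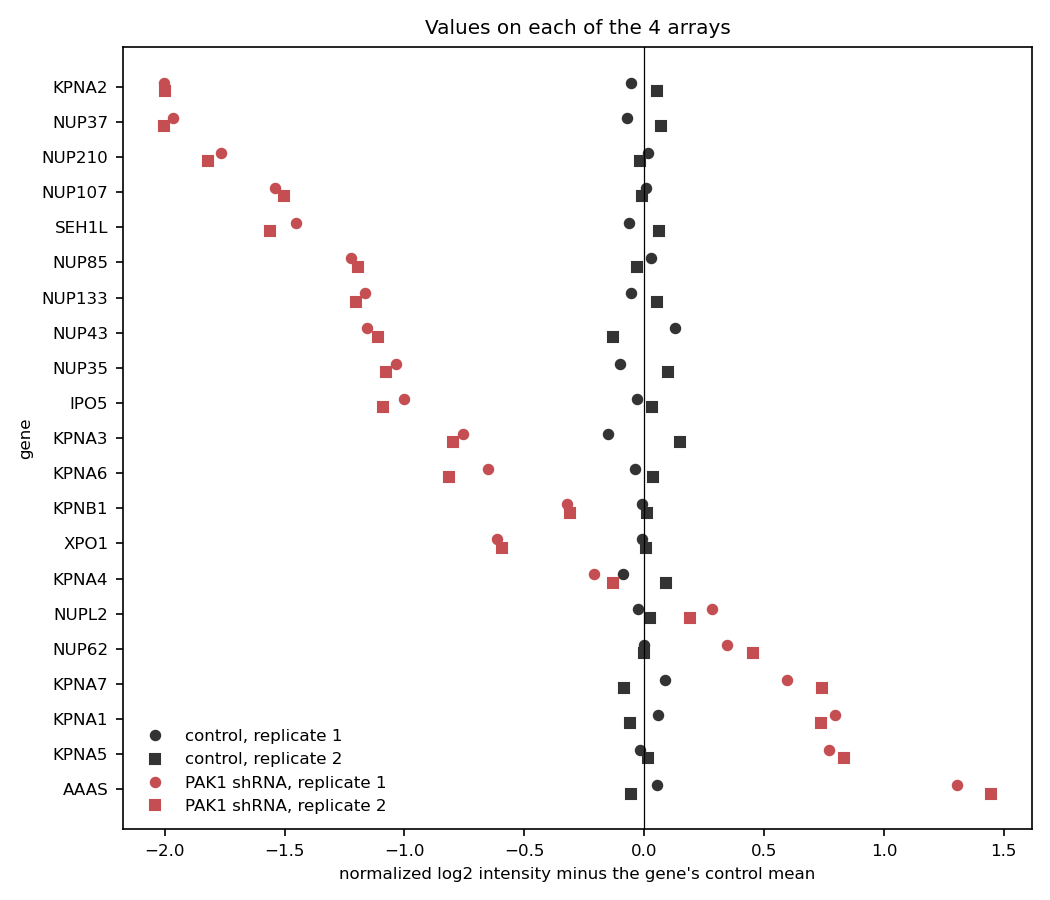
Normalized log2 intensity on each of the 4 arrays minus the control mean of the gene (x axis, log2 units) for 21 genes: those with the largest falls and rises among called genes, all importin alpha genes, KPNB1 and XPO1. Black marks are control and red marks PAK1 shRNA, circles replicate 1 and squares replicate 2. The groups do not overlap for any gene shown, from KPNA2 at -2.00 to AAAS at 1.38, and come closest for KPNA4, at -0.17. Most genes shown were picked for large called changes, and the groups did not overlap for 81.8% of all genes either.

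Importin beta genes were lower without exception among those called, 7 of 8. KPNB1, the carrier of classical import, gave 15.40 and 15.42 in control and 15.08 and 15.09 in PAK1 shRNA cells, a change of -0.32 (SE 0.071, limma adjusted p = 0.00731), and a second probe gave -0.34. The fall was small beside that of KPNA2, and it was not called after cyclic loess normalization (-0.08, adjusted p = 0.397) or with the processed signal (-0.16, adjusted p = 0.174). IPO5, which imports histones and ribosomal proteins, gave 12.08 and 12.14 against 11.11 and 11.02, a change of -1.05 (SE 0.077, adjusted p = 3.99e-05), and a second probe gave -1.37. IPO7, IPO4, IPO8, IPO9 and IPO13 were also called lower, at -0.91, -0.88, -0.86, -0.57 and -0.48. IPO11 gave -0.21 (adjusted p = 0.337), with PAK1 shRNA arrays at 8.87 and 8.30 around a control mean of 8.79, so the array decided its direction.

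Of the exportins 3 of 4 were called lower. XPO1 (CRM1), the receptor of leucine-rich export signals, gave 12.87 and 12.89 in control and 12.27 and 12.29 in PAK1 shRNA cells, a change of -0.60 (SE 0.071, limma adjusted p = 0.000351). The arrays of a group were nearly equal, and XPO1 was called in each of 16 other settings. XPO7 changed by -0.96 and XPO4, which exports eIF5A, by -0.34. XPO6, the exportin of actin, gave -0.05 (adjusted p = 0.672) with overlapping groups.

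Of the tested genes 16 had more than 1 probe. The probes gave the same sign for 14 of them, with NUP50 and SEC13 as the exceptions. SEH1L, NUP133 and NUP43 were lower at each probe, but the dimmer probe gave the smaller change, -0.88, -0.74 and -0.56. The dimmer probe also gave the smaller change for KPNA5, KPNA6, NUP35 and TPR. It gave the larger change for IPO5 (-1.37), IPO7 (-1.07), NUP62 (0.61), KPNA7, KPNB1, NUP98 and NUPL2. Where in the transcript each probe lies (exon or untranslated region) was not analysed here.

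**Figure D4:**
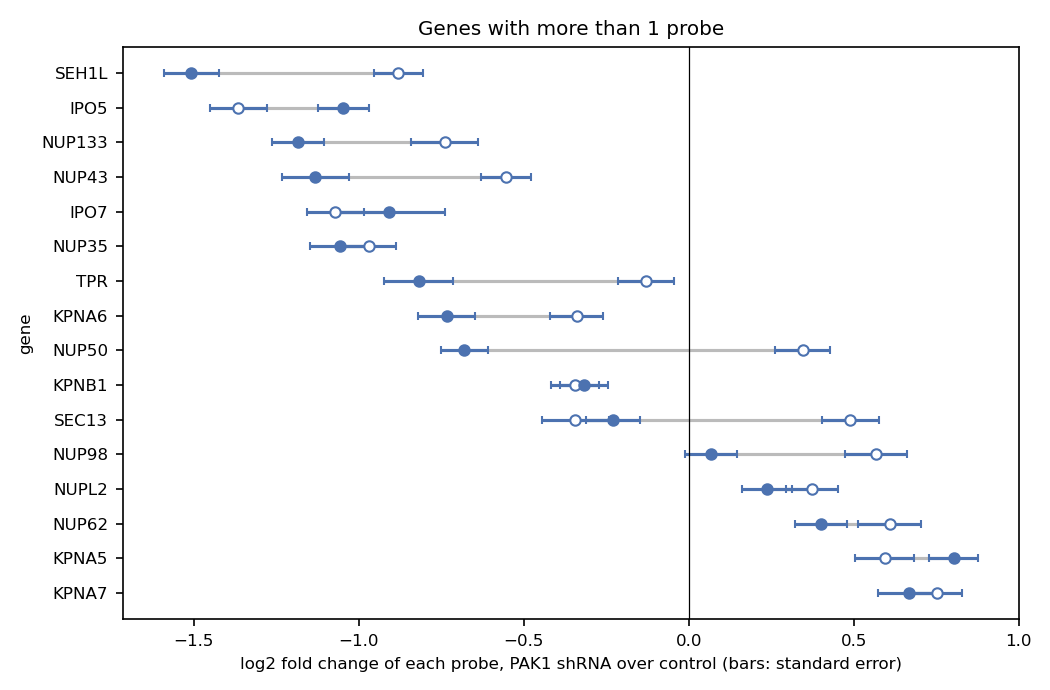
Log2 fold change of each probe (x axis, PAK1 shRNA over control, bars show the standard error, 2 arrays a group) for the 16 tested genes with more than 1 probe. The filled point is the probe that stands for the gene, the one with the highest mean. The lines of NUP50 (-0.68 and 0.34) and SEC13 (-0.34 to 0.49) cross 0, and those of the other genes do not.

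The genes that drive and complete transport gave the following counts, beside 31.8% of all genes called lower and 31.1% called higher. Of 10 genes of the Ran cycle, 7 were called lower and 2 higher, with a median of -0.63. The 3 largest changes there were RANBP1, a cofactor of GTP hydrolysis by Ran, at -1.84, RCC1, the chromatin-bound exchange factor that makes Ran-GTP, at -1.71, and RAN itself at -1.42. RAN gave 16.85 and 16.95 in control and 15.52 and 15.42 in PAK1 shRNA cells (limma adjusted p = 1.3e-05).

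Among 11 receptors and pore genes that the name rule did not take, 8 were lower and 1 higher, with a median of -0.45. CSE1L, the exportin that returns importin alpha to the cytoplasm, had the largest change at -1.87 (SE 0.089, adjusted p = 6.31e-06), with 14.52 and 14.56 against 12.76 and 12.57. TMEM48 (NDC1) changed by -1.27 and CETN2, a centrin of centrioles and pores, by -1.22.

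Of 18 mRNA export genes 11 were lower and 3 higher, with a median of -0.34. THOC4 (ALYREF), an adaptor that loads export receptors on mRNA, changed by -1.56. NXF1, the main mRNA export receptor, changed by 1.43 (SE 0.08, adjusted p = 1.25e-05), with 12.60 and 12.50 in control and 13.93 and 14.03 in PAK1 shRNA cells. GLE1, the activator of the helicase that releases mRNA at the cytoplasmic face, changed by -1.10, and by -0.71 with all spots in the background fit. THOC4 and NXF1 thus changed in opposite directions, and so did NXF1 and its partner NXT1, which was called lower at -0.95.

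Of 16 genes of the lamina and nuclear envelope, 11 were lower and 2 higher, with a median of -0.70. LMNB1, a B-type lamin of the meshwork under the inner membrane, gave 12.01 and 12.49 in control and 7.56 and 7.50 in PAK1 shRNA cells, a change of -4.72 (SE 0.15, adjusted p = 1.41e-06), which left 3.79% of the control intensity at this probe. Averaged over its probes LMNB1 changed by -2.99, and by -3.73 with all spots in the background fit. LMNB2 changed by -2.78 and LBR, the lamin B receptor, by -2.16. These exceeded every fall among the pore and receptor genes.

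Across 16 other ways to process the arrays, the lower count among the 47 genes stayed between 27 and 36 and the higher count between 4 and 7, and the median change between -0.68 and -0.56. Under the same settings 41.6% to 69% of all genes were called.

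**Figure D5:**
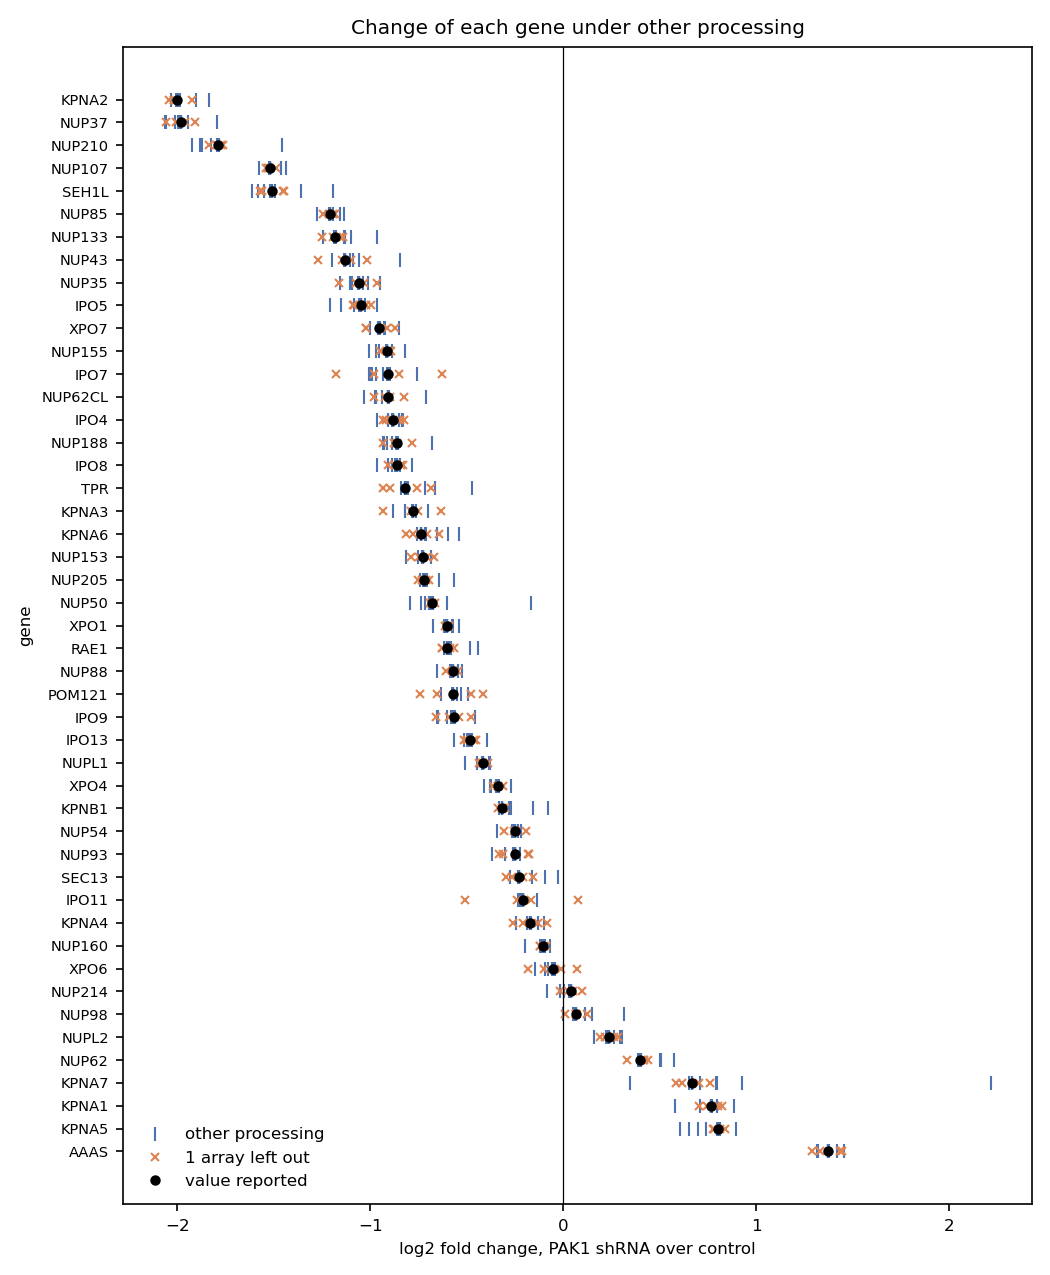
Log2 fold change of each of the 47 tested genes (x axis, PAK1 shRNA over control) as reported (black), under other processing (blue bars) and with 1 array left out (orange crosses). Genes that fell by at least 2-fold, from KPNA2 to IPO5, stay below 0 in each setting, whereas IPO11, XPO6 and NUP214 cross 0 and KPNA7 reaches 2.22. The smallest falls of NUP43 (-0.84), NUP35 (-0.95), NUP133 (-0.96) and IPO5 (-0.97) are short of 2-fold.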

How the data were processed

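Total RNA of 2 control and 2 PAK1 shRNA samples of MCF10A.B2 cells was labelled with Cy3 and hybridised to Agilent 1-colour arrays, all on 1 slide. Each array was deposited as the scanner output of Agilent Feature Extraction (9.5.3.1 per the file headers), with a signal and a background intensity per spot not normalized between arrays, beside a table of the authors' log2 values, used as an alternative. The study's methods name normexp and quantile normalization for the arrays, with no offset given, and moderated tests in limma. Samples were grouped by their labels.

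Intensities were corrected with normexp (offset 50) and quantile normalized. The fit left out spots whose local background was flagged, since these moved its background mean on the control arrays from -9.19 to -666 and from -12.1 to -740. Spots with a background over 100, outlier spots and control spots were dropped. A probe was kept if both arrays of either group called it well above background, and each gene was represented by its probe of highest mean. The groups were compared in limma 3.58.1 (lmFit, then eBayes) under R 4.3.3, and p-values were adjusted over 21996 genes. The script was checked on simulated data. An exact permutation test of 2 against 2 arrays cannot go below 0.333 and was not used.

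The genes, lists and motifs were chosen with earlier results of these data known. Every gene is named once. Values on every array are given for the 10 largest falls and the 8 largest rises among called genes well above background on all 4 arrays (only 5 rises qualified), for KPNB1, XPO1 and all importin alpha genes, and where probes differed in sign, with the 3 largest changes of each pathway list. Values of NUP98, AAAS and IPO11 beyond this, those of RANBP2, AHCTF1 and NXT1, and the promoters printed, were chosen after they were seen. Probe coordinates are those of the array files (hg19) and promoters those of RefSeq (GRCh38.p14). Alternatives changed the background correction, signal, normalization, filter, flags, probe rule and test, added a replicate block, or left out 1 array.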

Additional observations from a re-analysis of the deposited data

How the results depend on the processing

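Of 751 values of single genes under 16 alternatives, 707 kept direction and side of the threshold, 36 lost the call, 3 gained it and 5 changed sign. The sign changed for NUP214 (-0.016 in the authors' values, -0.085 with median centring, -0.014 without PAK1 shRNA replicate 1), XPO6 (0.073 without control replicate 2) and IPO11 (0.077 without PAK1 shRNA replicate 2), none of which had been called, and the cause was not tested. With 1 array left out NUP214 ranged from -0.014 to 0.097, XPO6 from -0.181 to 0.073 and IPO11 from -0.508, where it was called (without PAK1 shRNA replicate 1), to 0.077. The members' median moved to -0.643 with the processed signal, -0.56 with cyclic loess, -0.676 with median centring, -0.641 for probes well above background on all arrays and -0.571 with the mean over probes. It ranged from -0.661 to -0.609 with 1 array left out, where 32 to 36 genes were lower and 5 higher, beside 52.9% to 59.5% of all genes called (6001 to 6658 lower, 5814 to 6491 higher). At least 2-fold higher were 2 genes with the processed signal instead of 1. The processed signal moved the median of all genes from 0.02 to 0.12 and median centring to 0.141, so that relative to these the members lay lower still.

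The unpaired t-test, which the methods name for the study in general and not for the arrays (there limma), called 12121 genes at their unadjusted threshold, of the 47 genes 38, and 9161 after Benjamini-Hochberg, of which 4417 were higher and 4744 lower, against 13843 with limma. Of the 47 genes it then called 27 lower and 4 higher. PAK1 was lower in all 16 alternatives, from -0.855 to -0.662, and from -0.789 to -0.71 with 1 array left out.

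Same-numbered arrays did not deviate together (r = 0.00812 over 27505 probes), so the numbers were not taken to pair the samples. With the replicate block 6 genes were higher and 34 lower, and SEC13 was no longer called (adjusted p = 0.0509). The number of arrays, 2 a group, limits the precision.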
